A study of Mus musculus with 8 samples.

Results

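The genes described here are 49 genes of the photoreceptor cilium and of intraflagellar transport, out of 54532 genes in the deposited tables. They were taken by symbol from a list chosen with earlier results of these data known. All 49 were found once each, and all 49 passed the filter on low counts that left 17725 genes for testing. The tissue was retina of the rd10 mouse, in which mutant Pde6b, the gene of a rod phosphodiesterase subunit, leads to loss of rods followed by cones. All 8 libraries carry this rd10 background. One group is labelled sIVs, for small intracellular vesicles, with 4 libraries numbered 2 to 5, and the other PBS, taken as the saline control, with 4 libraries numbered 1 to 4. The sources used here do not state the vesicles' origin, their dose or route, the age or sex of the mice, when retinas were taken, or whether each library is 1 animal. The p-values therefore measure only the spread between these libraries, which may be technical.

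A photoreceptor builds its light-sensing outer segment as an enlarged primary cilium. All protein bound for it passes through a narrow connecting cilium, which corresponds to the transition zone of other cilia. Intraflagellar transport (IFT) moves cargo along the axoneme as trains: the IFT-B complex is needed for movement to the tip with kinesin-2, and the IFT-A complex for the return with cytoplasmic dynein-2. The BBSome, a coat of Bardet-Biedl syndrome proteins, rides on these trains and removes membrane proteins from the cilium. Transition zone proteins such as CEP290, RPGRIP1 and RPGR form the gate. Mutations in many of these genes cause inherited retinal degeneration in people.

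Library totals ran from 14640235 to 16989737 counts. Values by library are CPM, counts scaled to a common library size that TMM adjusts for composition. Rod genes marked the tissue as retina: all 13 rod markers were tested, at 94.9 to 2872 FPKM (fragments scaled by gene length and library size) in PBS. The sIVs libraries were not alike. All 13 rod markers were below every PBS library in sIVs library 3 and in sIVs library 4, 11 were in library 5 and 0 in library 2. Of all genes tested, 21.2%, 32.5%, 33.1% and 29.1% were below every PBS library in sIVs libraries 2 to 5. The summed level of the rod markers was 36782 to 43839 CPM in PBS and 41661, 9682, 9181 and 33092 CPM in sIVs libraries 2 to 5, with no marker at 0. Fold changes of single genes are therefore followed, in square brackets, by the value without sIVs libraries 3 and 4. In bulk tissue, fewer cells of a type and less RNA per cell cannot be told apart.

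As a group, the cilium genes had lower means in sIVs than in PBS, and most of that difference lay in sIVs libraries 3 and 4. Of the 49 genes, 45 had a negative fold change against 51% of all genes tested, and the median log2 fold change (sIVs minus PBS) was -0.21 against -0.01 over all genes. Scaled by library totals alone, 39 of the 49 were negative. No member passed the edgeR quasi-likelihood test after Benjamini-Hochberg adjustment over all genes, and none of the 17725 genes did (percent called 0). At an unadjusted p under 0.05, 11 members (22.4%) were lower, against 5.63% of all genes, and 0 were higher, against 9.61%. DESeq2 called 1 member lower after adjustment, Rpgr (adjusted p = 0.0268), against 0.598% of all genes, and 0 higher, against 2.62%. Limma-voom with sample quality weights called 32 members lower and 0 higher, against 14% of all genes in each direction.

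Read library by library, the median member stood at 0.01, -0.34, -0.42 and -0.04 on the log2 scale relative to the PBS mean in sIVs libraries 2 to 5, while the PBS libraries had medians of -0.03 to 0.02. In sIVs library 3, 40 members were below every PBS library, against 32.5% of all genes, and in library 4, 42 were, against 33.1%. In libraries 2 and 5 the counts were 9 and 17, shares of 18.4% and 34.7% beside 21.2% and 29.1% of all genes. Members above every PBS library numbered 14, 0, 2 and 10 in sIVs libraries 2 to 5, where 21.7%, 31.8%, 32.4% and 29.8% of all genes were. Without sIVs libraries 3 and 4 the members' median log2 fold change was 0.016, with 23 of 49 negative, beside 50.3% of all genes. At an unadjusted p under 0.05, 5 members were lower there (10.2% against 7.09% of all genes) and 3 higher (against 6.84%). Past the adjusted threshold there were 0 in either direction (against 0.00564% lower and 0.0113% higher).

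**Figure D1:**
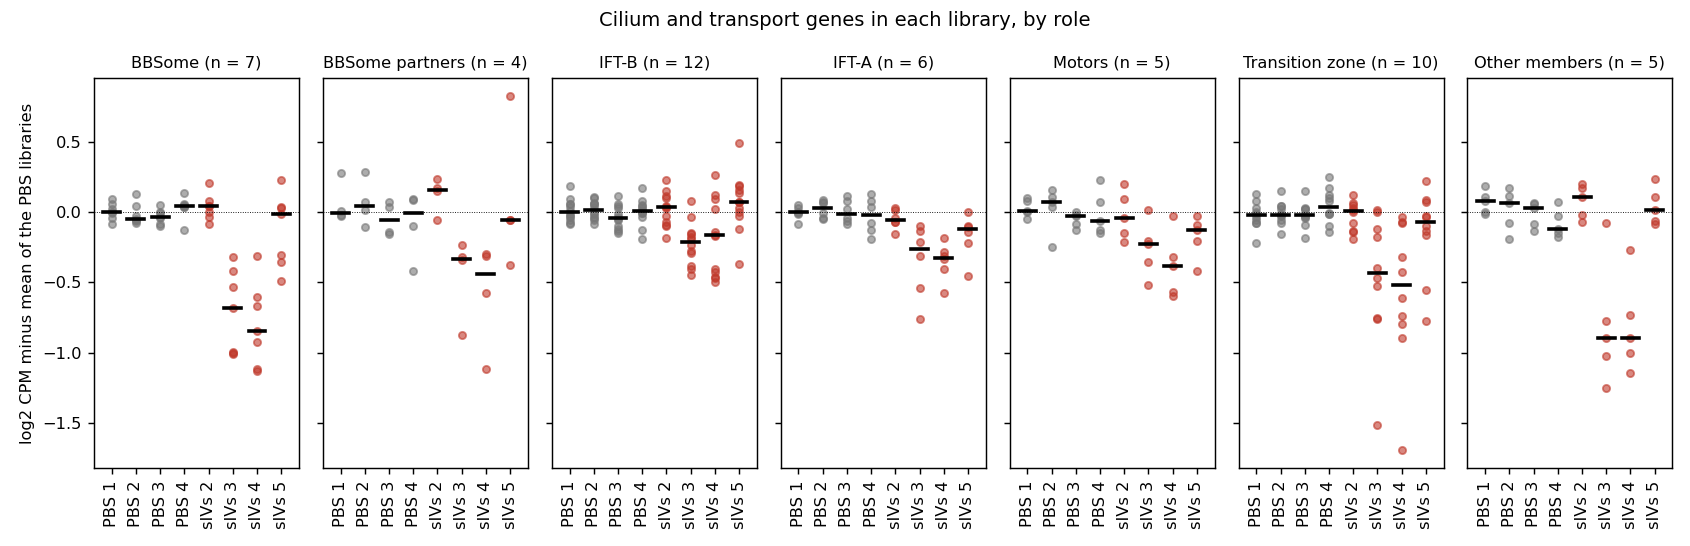
Each point is 1 member in 1 library, as log2 CPM minus the mean of the 4 PBS libraries (vertical axis), with libraries on the horizontal axis, PBS in grey, sIVs in red and a black bar at the median of the role. The black bars drop furthest in sIVs libraries 3 and 4 for the BBSome and the other members, and least for IFT-B.

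Roles differed in how far they stood below PBS in these libraries. The 7 BBSome subunits had medians of 0.04, -0.68, -0.85 and -0.02 in sIVs libraries 2 to 5, the 10 transition zone genes 0.01, -0.43, -0.52 and -0.07, the 6 IFT-A genes -0.06, -0.26, -0.32 and -0.12, the 5 motor genes -0.04, -0.23, -0.38 and -0.13 and the 12 IFT-B genes 0.04, -0.21, -0.16 and 0.07. The 4 BBSome partners stood at 0.16, -0.33, -0.44 and -0.06, and the 5 members outside these complexes at 0.11, -0.89, -0.89 and 0.01, the lowest role median in library 3 and in library 4. Outer segment disc genes stood at 0.07, -1.56, -1.58 and -0.10 and rod markers at 0.08, -1.88, -1.96 and -0.28. The 9 cone markers had medians of -0.21, -1.04, -0.98 and -0.61 and a summed level of 1264 to 1878 CPM for PBS and 575 to 1199.9 CPM for sIVs. Of these, 6 were lower at an unadjusted p under 0.05 (66.7%, against 5.63% of all genes). In 3 the groups did not overlap, with sIVs lower (33.3%, against 3.36% of all genes). The 3 reactive glia markers had medians of 0.51, 1.67, 1.61 and 0.61. Their summed level was 285 to 501 CPM for PBS and 554 to 1312 CPM for sIVs. Of these markers, 3 of 3 were higher at an unadjusted p under 0.05, against 9.61% of all genes. In the same order of libraries, Müller glia markers (6 genes) had medians of -0.27, 0.53, 0.72 and -0.92 and microglial markers (6 genes) of -0.23, 0.83, 1.14 and -0.62. The summed microglial level was 84.0 to 129.9 CPM in PBS and 71.2 to 235 CPM in sIVs, the Müller glia sum 3019 to 3991 and 1611 to 2816 CPM, and no marker of these lists was at 0. The Müller glia sum was below PBS in every sIVs library while the list's median was above PBS in libraries 3 and 4. The part of cell makeup in the cilium values was not tested, and neither was the difference between roles.

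**Figure D2:**
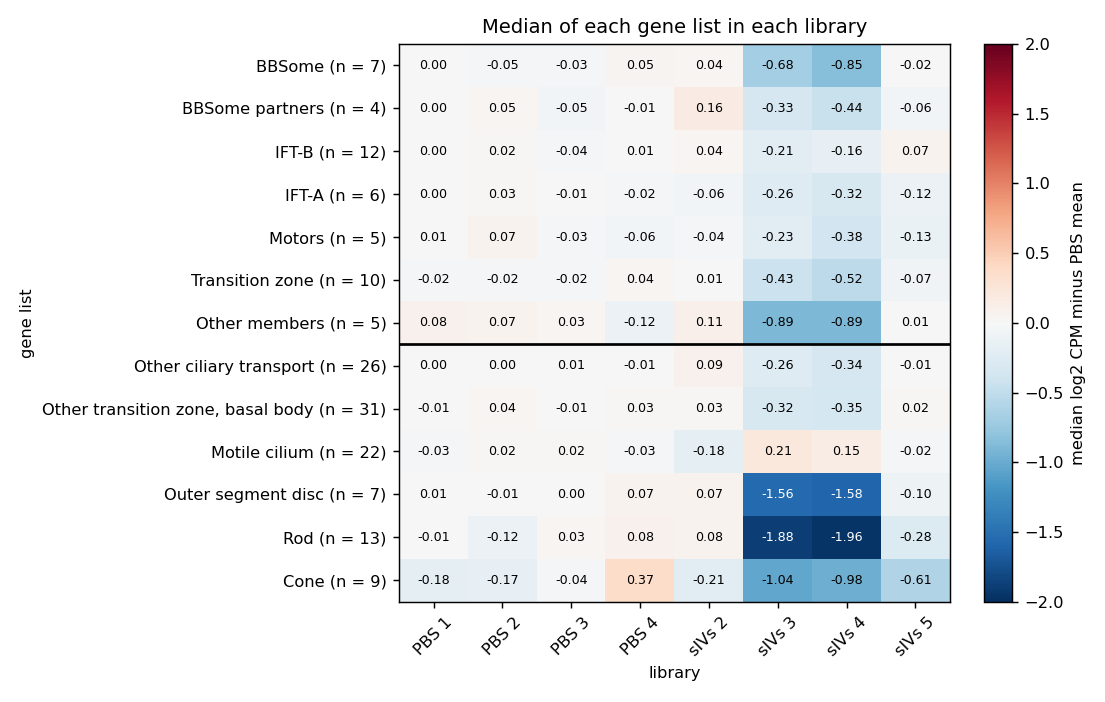
Each cell gives the median of a gene list (rows) in a library (columns), as log2 CPM minus the mean of the 4 PBS libraries, with member roles above the black line and other lists below it. In sIVs libraries 3 and 4 the rod list reads -1.88 and -1.96, the BBSome -0.68 and -0.85 and IFT-B -0.21 and -0.16, while the motile cilium list reads 0.21 and 0.15.

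The members spanned a wide range of levels per length. In PBS, Unc119 stood at 413 ± 35.4 FPKM and Arl3 at 230.3 ± 21.1 FPKM (SD, n = 4), the highest of the 49. UNC119 and ARL3 work as a pair: UNC119 carries lipid-modified proteins such as transducin to the cilium and ARL3 releases them there. Arl6, Rpgrip1 and Mak followed at 85.5 ± 19.9 FPKM, 78.4 ± 10.6 FPKM and 48.3 ± 5.55 FPKM. At the low end were Kif17 (1.78 ± 0.256 FPKM), Spata7 (1.98 ± 0.129 FPKM) and Rpgrip1l (2.04 ± 0.201 FPKM). The ranges of mean ± SD of these 3 overlapped, and so did those of Rpgrip1 and Arl6 at the upper end. The median of the BBSome subunits was 25.4 FPKM, of IFT-B 10.5, of the transition zone 7.89 and of IFT-A 7.08, beside 5.21 over all genes tested.

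Promoter letters were read for the 44 members with a RefSeq promoter (250 bases before to 50 after the start, GRCm38.p6), because most members were low together in sIVs libraries 3 and 4. The X-box is the site of RFX factors, some of which are known regulators of ciliary genes. It was searched on both strands as GTNNCC, then NN, then GGNAAC, and 7 members (15.9%) held it, against 1.49% of 27025 genes. The members were Bbs1, Bbs4, Bbs7, Ift22, Ift57, Ahi1 and Nphp4. The sequences of 5 of them are shown with the match in capitals, because they span genes below PBS in every sIVs library (Bbs1, Ift22) and genes that were not (Bbs7, Ift57, Ahi1).
Bbs1 (chr19:4906613-4906626, minus strand, match starting 2 bases into the transcript): GTTGCCAAGGCGAC
Bbs7 (chr3:36613497-36613510, minus strand, match starting 121 bases before the start): GTTGCCTTGGAAAC
Ift22 (chr5:136908097-136908149, plus strand, match starting 33 bases before the start): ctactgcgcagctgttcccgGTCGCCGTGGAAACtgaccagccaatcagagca
Ift57 (chr16:49699207-49699220, plus strand, match starting 87 bases before the start): GTTGCCGTGGTGAC
Ahi1 (chr10:20952568-20952581, plus strand, match starting 22 bases into the transcript): GTTACCTAGGCAAC
Ift22 held a second match that began 63 bases before its start. CRX, the photoreceptor homeobox factor, binds sites with the core TAATCC. This core (both strands) was in 4 members, Bbs1, Mak, Rpgrip1 and Unc119, a share of 9.09% beside 8.14% of all genes. Those of Mak and Unc119 are shown because both genes were below all PBS libraries in sIVs libraries 3 and 4 and not in libraries 2 and 5.
Mak (chr13:41070658-41070703, minus strand, match starting 218 bases before the start): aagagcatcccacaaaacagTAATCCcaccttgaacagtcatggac
Unc119 (chr11:78345446-78345491, plus strand, match starting 118 bases before the start): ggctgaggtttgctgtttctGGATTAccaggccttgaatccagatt
Distances are from the RefSeq start, which can differ from the gene ends in the deposited tables: for Mak and Unc119 the printed stretch lies inside the tables' gene span, outside annotated exons. The matches shown for Bbs1 and Ahi1 lie in annotated exons, and those of Bbs7, Ift22 and Ift57 lie before the gene. No RFX match overlapped a CRX match. A match describes the letters only, and the members with and without one were not compared.

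Fold changes were negative in each of the 7 BBSome subunit genes, with a median of -0.31 and a range of -0.60 to -0.14. All 7 were below every PBS library in sIVs libraries 3 and 4, against 32.5% and 33.1% of all genes. Without these libraries the median was 0.02. Bbs1 (ENSMUSG00000006464, chr19:4886898-4906627, minus strand), whose protein is bound by ARL6, stood at 107, 108, 113 and 125 CPM in PBS libraries 1 to 4 and at 107, 78.2, 71.0 and 91.4 CPM in sIVs libraries 2 to 5. All 4 sIVs libraries lay below all 4 PBS libraries, though library 2 was within 0.1 CPM of the lowest PBS value, and the log2 fold change was -0.38 [-0.19] with an SE of 0.12 (adjusted p = 0.212). Bbs9, a scaffold subunit, was at 95.0, 90.6, 91.6 and 97.5 CPM in PBS libraries 1 to 4 and at 91.3, 46.6, 43.0 and 66.5 CPM in sIVs libraries 2 to 5. Its sIVs library 2 lay among the PBS libraries and the other 3 below them, with the lowest log2 fold change of the subunits, -0.60 [-0.25] with an SE of 0.21 (adjusted p = 0.242). Ttc8 (Bbs8) showed the same order of libraries at -0.31 [-0.14]. Bbs2, Bbs5 and Bbs7 were split more sharply: Bbs7 stood at 143, 135, 129 and 142 CPM in PBS libraries 1 to 4 and at 141, 68.0, 62.6 and 140.2 CPM in sIVs libraries 2 to 5, with libraries 3 and 4 at about the same low level and libraries 2 and 5 inside the PBS range. The log2 fold changes of Bbs2, Bbs5 and Bbs7 were -0.31 [0.03], -0.26 [0.21] and -0.42 [0.03]. Bbs4 had the smallest difference, -0.14 [0.02].

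The 4 partners of the BBSome differed among themselves. Bbs12 and Bbs10, chaperonin-like proteins that help assemble the BBSome together with Mkks, were at -0.38 [0.05] and -0.27 [-0.21]. Bbs12 stood at 52.5, 52.7, 54.6 and 48.5 CPM in PBS libraries 1 to 4 and at 57.9, 28.3, 24.0 and 50.2 CPM in sIVs libraries 2 to 5, with sIVs libraries 3 and 4 below the PBS range, library 5 inside it and library 2 above it (SE 0.25, adjusted p = 0.492). Bbs10 stood at 14.6, 13.8, 15.2 and 15.8 CPM in PBS libraries 1 to 4 and at 14.3, 11.7, 12.0 and 11.4 CPM in sIVs libraries 2 to 5, and sIVs library 2 overlapped PBS while the other 3 were below it (SE 0.11, adjusted p = 0.297). Mkks was at -0.08 [0.09]. Arl6, the small GTPase that recruits the BBSome to membranes, varied most among the members in PBS relative to its mean, at 214, 215, 158 and 132 CPM in PBS libraries 1 to 4 and at 198, 141, 118 and 313 CPM in sIVs libraries 2 to 5. Its highest value was in sIVs library 5 and its lowest in library 4, and the log2 fold change was 0.10 [0.50] with an SE of 0.29 (adjusted p = 0.899).

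Genes of the IFT-B complex lay closest to PBS, with a median log2 fold change of -0.08 and a range of -0.23 to 0.16. Ift22 (ENSMUSG00000007987, chr5:136908150-136915404, plus strand) encodes a small GTPase-like subunit, and its promoter match is shown above. Ift22 was the 1 IFT-B gene of 12 with all sIVs libraries below all PBS libraries (8.33%, against 3.36% of all genes). It stood at 39.3, 40.4, 42.3 and 43.9 CPM in PBS libraries 1 to 4 and at 36.6, 35.2, 37.6 and 32.1 CPM in sIVs libraries 2 to 5, and its log2 fold change was -0.23 [-0.27] with an SE of 0.08 (adjusted p = 0.226). It was lowest in sIVs library 5. Ift80 stood at 89.4, 83.7, 76.3 and 86.7 CPM in PBS libraries 1 to 4 and at 85.8, 64.2, 63.4 and 77.3 CPM in sIVs libraries 2 to 5, with libraries 3 and 4 lowest, at -0.21 [-0.05] with an SE of 0.11 (adjusted p = 0.383). Ift81 and Ift74, which form the tubulin-binding part of IFT-B, were at -0.19 [0.03] and -0.13 [0.09]. Ift88, whose loss in mice is known to disrupt cilia and outer segments, was at -0.07 [0.17] with an SE of 0.14 (adjusted p = 0.854). Ift46, Ift52 and Ift172 stood at -0.02 [-0.01], -0.02 [0.02] and -0.06 [0.04], each with an SE of 0.08. Ift57 (ENSMUSG00000032965, chr16:49699233-49765126, plus strand) had the highest fold change of all members, with means of 32.2 ± 5.75 CPM over the sIVs libraries and 28.7 ± 3.06 CPM over PBS (SD, n = 4). By library it stood at 32.5, 29.9, 26.3 and 26.2 CPM in PBS libraries 1 to 4 and at 26.8, 30.3, 31.2 and 40.3 CPM in sIVs libraries 2 to 5, and only sIVs library 5 was above the PBS range (log2 fold change 0.16 [0.23], SE 0.13, adjusted p = 0.583). Ift27, the other IFT-B gene with a positive value, was at 0.13 [0.14] with an SE of 0.10 (adjusted p = 0.576). Ift20 and Traf3ip1 (IFT54) stood at -0.10 [-0.03] and -0.10 [0.19].

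All 6 IFT-A genes had negative fold changes, and the median of -0.20 moved to -0.11 without sIVs libraries 3 and 4. There 6 of 6 were still negative, beside 50.3% of all genes. At an unadjusted p under 0.05 in that edgeR fit 0 of them were lower, beside 7.09% of all genes. Ift140 (ENSMUSG00000024169, chr17:25016085-25099495, plus strand) stood at 57.9, 56.7, 59.3 and 59.8 CPM in PBS libraries 1 to 4 and at 55.6, 54.6, 51.4 and 50.1 CPM in sIVs libraries 2 to 5. The groups did not overlap, the difference was small, and the log2 fold change was -0.14 [-0.15] with an SE of 0.06 (adjusted p = 0.314). Wdr35 (IFT121, ENSMUSG00000066643, chr12:8973892-9028847, plus strand) also did not overlap, at 67.3, 64.8, 68.6 and 59.3 CPM in PBS libraries 1 to 4 and at 58.2, 59.2, 52.2 and 58.9 CPM in sIVs libraries 2 to 5, and its log2 fold change was -0.19 [-0.15] with an SE of 0.07 (adjusted p = 0.279). The highest sIVs and lowest PBS values of Wdr35 were 59.2 and 59.3 CPM, so its groups met at the edge. Ttc21b (IFT139) stood at 32.0, 35.3, 32.4 and 35.7 CPM in PBS libraries 1 to 4 and at 34.1, 27.2, 26.8 and 24.6 CPM in sIVs libraries 2 to 5, with sIVs library 2 inside the PBS range and the other 3 below it (log2 fold change -0.26 [-0.21], SE 0.11, adjusted p = 0.29). Ift122 had the lowest fold change of the complex, -0.32 [-0.04]. Wdr19 (IFT144) and Ift43 were at -0.19 [-0.08] and -0.21 [-0.04].

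Of the 5 motor genes, 1 had groups that did not overlap, with sIVs lower (20%, against 3.36% of all genes). Dync2h1 (ENSMUSG00000047193, chr9:6928503-7184446, minus strand), the heavy chain of the return motor, stood at 115, 128, 114 and 104 CPM in PBS libraries 1 to 4 and at 104, 99.8, 92.2 and 86.0 CPM in sIVs libraries 2 to 5. Every sIVs library was below every PBS library, and the log2 fold change was -0.27 [-0.29] with an SE of 0.09 (adjusted p = 0.211). PBS library 4 and sIVs library 2 differed by less than 0.5 CPM. Its light intermediate chain gene Dync2li1 was at -0.14 [0.06]. Kif3a and Kif3b encode the motor pair of heterotrimeric kinesin-2. Kif3a did not follow the rod markers: it stood at 90.9, 101, 93.8 and 89.8 CPM in PBS libraries 1 to 4 and at 91.2, 94.7, 92.0 and 81.3 CPM in sIVs libraries 2 to 5, with libraries 3 and 4 inside the PBS range and library 5 below it (log2 fold change -0.06 [-0.12], SE 0.07, adjusted p = 0.705). Kif3b was at 92.5 and 89.7 CPM in these libraries, below the lowest PBS value of 122, and at -0.23 [0.03] overall. Kif17, the homodimeric kinesin-2, had the lowest level per length of all members and stood at 8.69, 6.8, 7.64 and 9.53 CPM in PBS libraries 1 to 4 and at 6.96, 6.9, 5.3 and 7.4 CPM in sIVs libraries 2 to 5, and the groups overlapped (log2 fold change -0.30 [-0.18], SE 0.16, adjusted p = 0.409).

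Transition zone genes ran from the lowest fold change of all members to values near 0. Rpgr (ENSMUSG00000031174, chrX:10073621-10216920, minus strand), the X-linked retinitis pigmentosa GTPase regulator, had the smallest p of the members. It stood at 57.2, 65.0, 59.3 and 53.0 CPM in PBS libraries 1 to 4 and at 51.3, 44.3, 38.3 and 39.9 CPM in sIVs libraries 2 to 5. Every sIVs library was below every PBS library, and the means were 43.4 ± 5.83 CPM over the sIVs libraries and 58.6 ± 4.98 CPM over PBS (SD, n = 4), a 1.35-fold lower fitted level. Its log2 fold change was -0.43 [-0.37] with an SE of 0.10 (adjusted p = 0.167). Rpgrip1 (ENSMUSG00000057132, chr14:52110704-52163546, plus strand), which anchors RPGR in the connecting cilium, had the lowest fold change of the 49 genes. It stood at 814, 914, 966 and 1130.5 CPM in PBS libraries 1 to 4 and at 949, 331, 293 and 555 CPM in sIVs libraries 2 to 5. Libraries 3, 4 and 5 were below the PBS range and library 2 within it, and the log2 fold change was -0.85 [-0.35] with an SE of 0.33 (adjusted p = 0.28).

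Cep290 (ENSMUSG00000019971, chr10:100487558-100574840, plus strand), whose protein links the transition zone microtubules to the membrane, had the smallest SD relative to its mean in PBS and was split in sIVs. It stood at 177, 182, 177 and 179 CPM in PBS libraries 1 to 4 and at 185, 105, 103 and 174 CPM in sIVs libraries 2 to 5. Library 2 was just above the PBS range, library 5 just below it and libraries 3 and 4 far below, and the log2 fold change was -0.33 [0.01] with an SE of 0.19 (adjusted p = 0.426). The transition zone genes Cc2d2a and Nphp4 were also lowest in libraries 3 and 4, at -0.40 [-0.08] and -0.26 [0.05]. Tmem67, a membrane protein of the transition zone, was at -0.17 [0.02], and Spata7, which acts in the connecting cilium with RPGRIP1, at -0.10 [0.06]. Others did not follow: Ahi1 was at 205 and 196 CPM in sIVs libraries 3 and 4 beside 205 ± 10.2 CPM in PBS (SD, n = 4). Its sIVs libraries 2, 4 and 5, at 194, 195.7 and 186 CPM, lay below the lowest PBS value of 197.5 CPM. Iqcb1 (NPHP5) was at 29.5 and 28.5 CPM in sIVs libraries 3 and 4 beside 29.2 ± 2.13 CPM in PBS. The log2 fold change of Ahi1 was -0.07 [-0.11] with an SE of 0.07 (adjusted p = 0.647). For Iqcb1, which binds CEP290, it was 0.04 [0.09] with an SE of 0.08 (adjusted p = 0.826). Rpgrip1l, the relative of Rpgrip1 that is widely used in ciliated cells, was at -0.13 [-0.12] with an SE of 0.09 (adjusted p = 0.521).

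**Figure D3:**
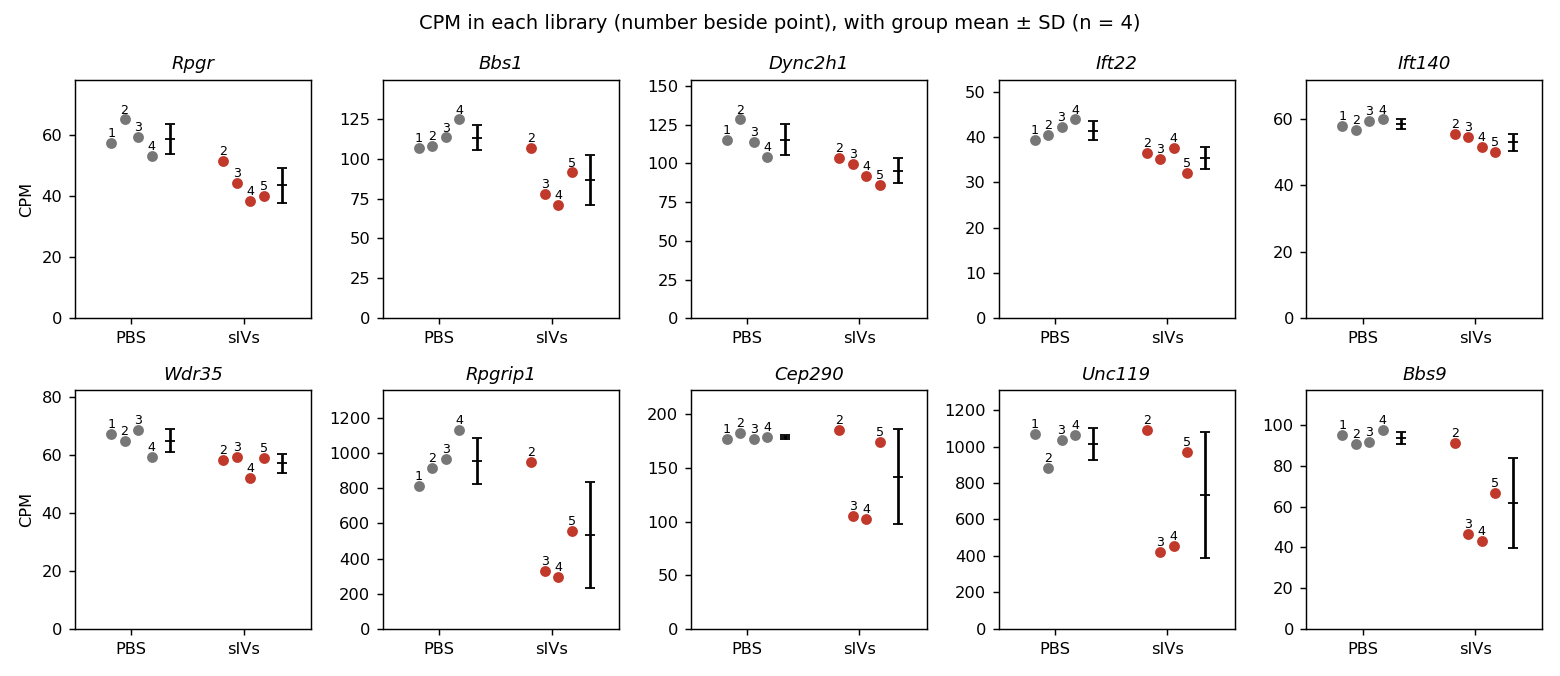
Points give the CPM (vertical axis, from 0) of 10 members in each library, labelled by library number, with the group mean and SD (n = 4) beside them. The 6 genes from Rpgr to Wdr35 have all sIVs points below all PBS points, while Rpgrip1, Cep290, Unc119 and Bbs9 are lowest in sIVs libraries 3 and 4 and have sIVs library 2 at or near PBS.

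The 5 remaining members were led by genes of lipidated protein transport. Unc119 (ENSMUSG00000002058, chr11:78343482-78349164, plus strand) stood at 1071, 885, 1034 and 1065 CPM in PBS libraries 1 to 4 and at 1089.8, 424, 457 and 969 CPM in sIVs libraries 2 to 5. Libraries 2 and 5 were in or above the PBS range and libraries 3 and 4 at 0.418 and 0.45 times the PBS mean (log2 fold change -0.46 [0.02], SE 0.29, adjusted p = 0.473). Arl3 (ENSMUSG00000025035, chr19:46531109-46573085, minus strand) stood at 215, 179.9, 179 and 186 CPM in PBS libraries 1 to 4 and at 187, 92.9, 114 and 179 CPM in sIVs libraries 2 to 5, with the same libraries low and library 5 within 0.2 CPM of the lowest PBS value (log2 fold change -0.41 [-0.06], SE 0.20, adjusted p = 0.378). Mak, a kinase that limits the length of the connecting cilium and axoneme, was at 197 and 182 CPM in sIVs libraries 3 and 4 beside 368 ± 41.7 CPM in PBS (SD, n = 4), and its log2 fold change was -0.27 [0.20]. Lca5, which encodes lebercilin, an IFT-binding protein, was at -0.29 [0.11]. C2cd3, a centriole protein needed to start a cilium, was at -0.08 [0.02] with an SE of 0.09 (adjusted p = 0.735).

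Counted over all members, 6 of 49 had every sIVs library below every PBS library (12.2%, against 3.36% of all genes), namely Bbs1, Ift22, Ift140, Wdr35, Dync2h1 and Rpgr. They belong to 5 roles, and 2 of them are IFT-A genes. None was above in every library, against 4.42% of all genes. These counts use CPM scaled by TMM, whose factors were 1.07 in sIVs libraries 3 and 4 and 0.962 to 0.989 in the others. Scaled by library totals alone, Rpgr kept its groups apart, while those of Bbs1, Ift22, Ift140, Wdr35 and Dync2h1 overlapped. The log2 fold changes of the 6 genes without sIVs libraries 3 and 4 were -0.19, -0.27, -0.15, -0.15, -0.29 and -0.37 in that order. None passed edgeR there (edgeR adjusted p from 0.219 to 0.428). The negative signs follow from how the 6 genes were picked, because sIVs libraries 2 and 5 also lay below every PBS library. Leaving out sIVs library 2 instead moved 6 members past the threshold, all lower: Bbs1, Bbs9, Ttc8, Ttc21b, Rpgr and Rpgrip1 (edgeR adjusted p from 0.0126 to 0.0327). Of all genes, 2.56% passed in that direction there and 4.78% in the other.

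**Figure D4:**
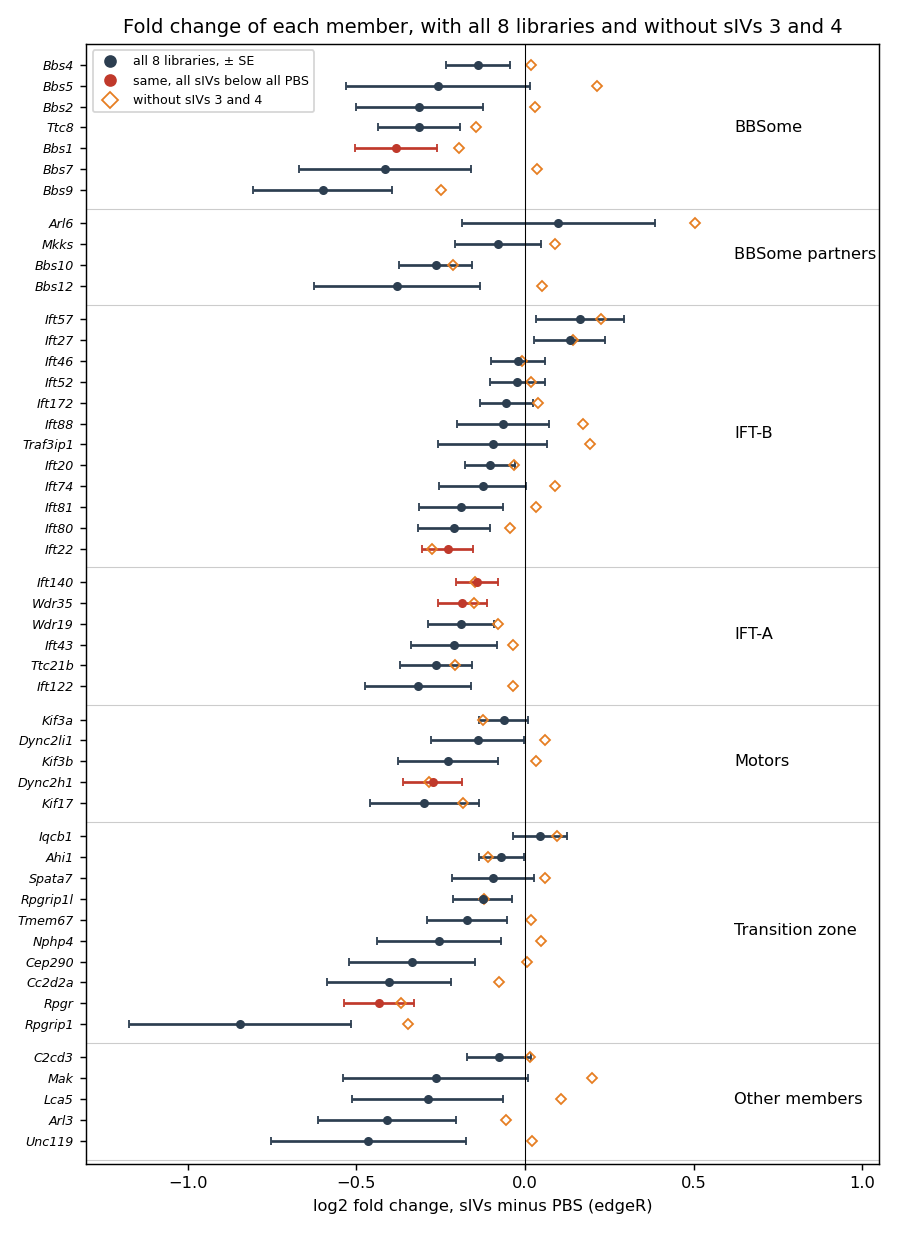
Circles give each member's log2 fold change (sIVs minus PBS, edgeR) with its SE over all 8 libraries, red where all sIVs libraries were below all PBS libraries, and open diamonds the value without sIVs libraries 3 and 4. With all libraries 45 of 49 circles are left of 0, and 23 of 49 diamonds are.

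Cilium genes outside the member list were read from 2 further lists. Of 26 other transport genes, 20 had a negative fold change (median -0.12), and of 31 other transition zone and basal body genes 27 did (median -0.15). None passed edgeR, and 2 (7.69%) and 4 (12.9%) were lower at an unadjusted p under 0.05, beside 5.63% of all genes, with 1 and 0 higher, beside 9.61%. The first share was near that of all genes. Without sIVs libraries 3 and 4 the medians were 0.03 and 0.04. Alms1, a centrosome and basal body gene mutated in Alström syndrome, had groups that did not overlap, at 55.6, 56.6, 56.2 and 61.4 CPM in PBS libraries 1 to 4 and at 50.4, 39.8, 37.3 and 37.9 CPM in sIVs libraries 2 to 5 (log2 fold change -0.48 [-0.38], SE 0.10, adjusted p = 0.158). Tulp3, an adaptor that brings membrane receptors to IFT-A, was on the other side of PBS. It stood at 36.1, 36.0, 38.0 and 36.6 CPM in PBS libraries 1 to 4 and at 45.9, 80.6, 84.1 and 47.8 CPM in sIVs libraries 2 to 5, with every sIVs library above every PBS library and libraries 3 and 4 highest (log2 fold change 0.82 [0.35], SE 0.19, adjusted p = 0.167). Ttc30b, an IFT-B subunit gene, was at -0.31 [-0.18] with an SE of 0.10 (adjusted p = 0.226).

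Motile cilia beat and are built with dynein arms. Of 29 genes of motile cilia, 22 passed the filter, and these were low, with a median of 0.441 FPKM in PBS. Negative fold changes were seen in 9 of these, and the median was 0.08. Ccdc39, which encodes an axonemal ruler protein, had the smallest p, at 43.2, 42.8, 44.3 and 48.5 CPM in PBS libraries 1 to 4 and at 36.9, 32.6, 33.7 and 31.3 CPM in sIVs libraries 2 to 5, with no overlap between groups (log2 fold change -0.41 [-0.39], SE 0.08, adjusted p = 0.143). Dnaic2, a dynein arm gene, was at -0.57 [-0.40] with an SE of 0.18 (adjusted p = 0.222). Of 8 tested regulator genes, 6 had negative fold changes, beside 51% of all genes, and 2 were lower at an unadjusted p under 0.05, beside 5.63%. These were Rfx3 (log2 fold change -0.22 [-0.08], SE 0.10, adjusted p = 0.314) and Rfx5, whose groups did not overlap (log2 fold change -0.24 [-0.25], SE 0.08, adjusted p = 0.251). Whether Rfx5 acts on cilium genes was not tested. Crx was at 917, 895, 932 and 879 CPM in PBS libraries 1 to 4 and at 1052, 415, 396 and 955 CPM in sIVs libraries 2 to 5 (log2 fold change -0.36 [0.15], SE 0.30, adjusted p = 0.596).

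Exons of 12 members overlap those of another gene in GENCODE M21, and the strand setting of the counting was not given in the sources used here, so their counts may include reads of the partner. The overlap is 1057 bases for Rpgrip1, with Supt16 on the opposite strand, which stood at 136 CPM in PBS against 956 for Rpgrip1. It is 881 bases for Cep290, with 4930430F08Rik at 20.0 CPM, and 208 bases for Rpgr, with Srpx on the same strand at 3.95 CPM. Of the other 5 members whose groups did not overlap, none shares exon bases with another gene.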

How the data were processed

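Retinal RNA was taken up in TRIzol and poly(A)-selected, and paired-end libraries marked for strand with dUTP were made, per the labels' protocols. Per the submitters' processing notes the genome build is mm10. Aligner, counting program, strand setting and annotation release are not given in these sources. The authors deposited unnormalised whole-number counts for 54532 genes and an FPKM table of the same genes, scaled by gene length, library total and 1 further constant per library. Of the members, 46 of 49 had coordinates identical to GENCODE M21 (GRCm38).

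Members, roles, lists and alternatives were chosen with earlier results of these data known. Each library took its group from its title, and columns headed IV were matched to the sIVs titles by number. The main test was the quasi-likelihood test of edgeR 4.0.16 (R 4.3.3) on 17725 genes left by filterByExpr, and adjusted p-values are from it unless another tool is named. It ran with TMM scaling, glmQLFit and glmQLFTest, the group as the only term, and Benjamini-Hochberg adjustment at 0.05 over all genes. Standard errors come from the F statistic. Library values relative to PBS use log2 CPM with a prior count of 2. The fit was tested on simulated data that had the same spread in both groups and no split among the sIVs libraries. That test therefore does not cover the split seen here. Roles are described by counts and medians, without a test. All members could be named. Values in every library were given for the 2 members of smallest p in each role, those whose groups do not overlap, the highest and lowest fold changes, Rpgr, Cep290 and Rpgrip1, and a few others chosen after their values were seen (Bbs7, Arl6, Kif3a and Crx). Rfx3 and Rfx5 were also named after their values were seen. Of other lists the 2 of smallest p could be named. EdgeR's common biological variation was 17.1% with all libraries, 8.83% within PBS and 22.3% within sIVs. Library totals were 14640235 to 16989737 counts.

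Alternatives were DESeq2 1.42.0, limma 3.58.1 (voom with sample quality weights, and log2(FPKM + 0.1) and log2(FPKM + 1)), other scalings, no filter, each library left out, sIVs libraries 3 and 4 left out, and replicate blocks. Promoter sequences are RefSeq's (GRCm38.p6) and were found for 44 members.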

Additional observations from a re-analysis of the deposited data

Results flagged for a closer look

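Within groups of 4 libraries, 3 of 98 sets of member values held 1 library whose gap to the others, divided by the group's range, passed Dixon's 95% limit. Chance flags about 1 in 20 groups. PBS library 3 was low for Ift20, at 56.8 CPM against 64.6 to 65.6 in the other 3 (ratio 0.885). PBS library 4 was high for Ift52, at 42.3 CPM against 35.3 to 36.5 (ratio 0.833). In sIVs, library 4 was low for Wdr35, at 52.2 CPM against 58.2 to 59.2 (ratio 0.854).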

How the results depend on the processing

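With edgeR on all 8 libraries 0 members passed in either direction. DESeq2 called 1 member lower, and limma-voom with sample quality weights called 32 lower (65.3%, against 14% of all genes). That fit gave sIVs libraries 2 and 5 weights of 0.258 and 0.245, against 1.84 and 1.22 for libraries 3 and 4. Leaving out 1 library at a time, between 0 and 6 members were called lower, the 6 without sIVs library 2, and 0 were called higher. The median over all members moved from -0.21 to 0.016 without sIVs libraries 3 and 4, where 22 members changed sign. With 1 library left out it ranged from -0.28 to -0.13. Library totals in place of TMM turned 6 members positive, all uncalled, and moved the median of all genes from -0.01 to 0.07. The groups of Bbs1, Ift22, Ift140, Wdr35 and Dync2h1, which did not overlap with TMM, overlapped with library totals. Other scalings, no filter and both FPKM fits called 0 members. No clear pairing of libraries by the numbers in the labels was seen: same-numbered libraries correlated at -0.06 to 0.055 by title and -0.075 to 0.098 by biosample number. With 4 libraries per group, such correlations cannot exclude a shared litter or day. With a replicate block by title number 0 members were called and 46 were negative, and with a block by biosample number 0 and 45.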

Other observations

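Summed CPM over the 22 tested genes of the motile cilium list was 114 to 116 over the sIVs libraries, below the 126 to 137 of PBS. Of these genes, 13 had a positive fold change. Ccdc39 gave the most counts of that list, with means of 33.6 ± 2.38 CPM over sIVs and 44.7 ± 2.59 CPM over PBS (SD, n = 4). Values of Ccdc39, Dync2h1, Ift140 and Rpgr were similar with and without sIVs libraries 3 and 4: -0.41 [-0.39], -0.27 [-0.29], -0.14 [-0.15] and -0.43 [-0.37] on the log2 scale, the second value being that without them. The median of the rod list was -0.74 with them and -0.10 without. That of the cone list was -0.67 and -0.43, with 9 of 9 genes negative without them, beside 50.3% of all genes. That of the Müller glia list was 0.13 and -0.61, with 6 of 6 negative without them, beside the same 50.3%. These genes were picked after their values were seen.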
